A study of Arabidopsis thaliana with 12 samples.

Results

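Of the 33330 features of a seedling RNA sequencing count table, 43 are the nuclear genes for the subunits and light-harvesting antenna proteins of the photosystems, taken by locus identifier. They comprise 21 antenna genes (6 LHCA and 15 LHCB), 12 photosystem I (PSI) subunit genes of the PSA series and 10 photosystem II (PSII) subunit genes of the PSB series, and all 43 passed the filter on low counts that left 20232 genes. Messenger RNA was measured in Arabidopsis thaliana seedlings that were 6 days old, grown on MS medium with 1% sucrose at 22 °C under 16 h of light and 8 h of dark. Wild type (WT) and plants labelled as hd2b hd2c knockouts stayed at 22 °C (normal, labelled as time 0 h) or spent 3 h at 44 °C (heat), with 3 libraries in each of these 4 groups. HD2B and HD2C encode plant-specific histone deacetylases, and the labels name no allele. HD2B averaged 40.0 ± 3.00 CPM in WT normal and 85.8 ± 4.97 in WT heat, against 23.8 ± 2.76 and 18.6 ± 4.75 under the hd2b hd2c label (mean ± SD, n = 3; CPM are counts scaled to a common library size). HD2C averaged 37.3 ± 2.40 and 149 ± 4.69 CPM in WT, against 98.1 ± 6.97 and 324 ± 30.2. HD2B transcript was thus lower and HD2C transcript higher than in WT. Transcript counts do not show whether functional protein is made, so they cannot settle whether the label holds. Below, hd2b hd2c means the libraries labelled hd2b hd2c. The series asked how heat and these genes shape the transcriptome, and here each photosystem gene is followed through heat, genotype and their interaction.

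The photosystems sit in the thylakoid membrane of the chloroplast and turn light into electron flow. Chlorophyll-binding antenna proteins, LHCA around PSI and LHCB around PSII, collect light and pass its energy to the reaction centres. LHCB1, LHCB2 and LHCB3 form the trimers of the major antenna LHCII, while LHCB4, LHCB5 and LHCB6 are the monomeric antenna proteins that connect the trimers to the PSII core. The reaction centre proteins themselves are encoded in the chloroplast genome and are not among the 43, whose products are imported from the cytosol. In green tissue the antenna transcripts are among the most abundant nuclear messages, and many of them respond to light, to chloroplast signals and to the circadian clock.

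Library totals lay between 7737285 and 24030931 counts. The members took between 5 and 8 of the 10 most abundant features in each library. One library, hd2b hd2c heat replicate 2, differed from the rest in having the lowest total and 11.2% of its counts on ribosomal RNA, against 0.734% to 5.02% in the other 11. Results that rest on it are given with and without it. Whether replicates are separate cultures is not stated, and the p-values cover the spread between these libraries, which may be technical. Because the heat libraries were collected at a label time of 3 h and the others at 0 h, heat and time of harvest cannot be told apart. Root marker genes, a list of 15, summed to 1256 to 1359 CPM in WT normal and 547 to 582 in WT heat, and to 889 to 1071 in hd2b hd2c normal and 470 to 507 in hd2b hd2c heat. On the CPM scale the sum thus moved with heat and was lower in hd2b hd2c at both temperatures without overlap, while as shares of counts the genotypes overlapped after heat. PYK10, at 1017 ± 50.1 CPM in WT normal (SD, n = 3), made up most of the sum, and of the 15 genes 9 fell and 1, NRT2.1, rose with heat in WT. Between 0 and 2 of the 15 were at 0 in a library. The part of root transcripts in the heat and genotype results was not tested. In whole seedlings, fewer cells of a type and less RNA per cell cannot be told apart.

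Scaling decides how large the heat effect looks. Levels in CPM use trimmed mean of M values (TMM) factors, which were 1.62 to 1.86 in the normal and 0.424 to 0.744 in the heat libraries, so that most genes centre near no change. A share of library counts uses no such factor. In WT the tested genes had a median log2 fold change with heat of −0.14 under TMM and −1.67 with library totals only. Of all tested genes, 6269 rose and 7046 fell under TMM, and 1031 rose and 16002 fell with library totals only. Levels are therefore given on both scales, and ratios within a library depend on neither.

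As shares of library counts, the antenna genes as a class went up most. Together the 21 antenna genes held 8.64, 8.28 and 9.65% of counts in the WT normal libraries, in replicate order, and 24.9, 26.9 and 29.6% in WT heat. In hd2b hd2c they held 8.14, 7.66 and 6.40% at normal temperature and 22.7, 28.7 and 19.8% after heat. The heat libraries were all above the normal libraries in both genotypes, and the mean share was 3.06-fold higher with heat in WT and 3.21-fold higher in hd2b hd2c. Within the antenna, the mean share of the LHCA genes was 3.49-fold higher with heat in WT and that of the LHCB genes 2.97-fold. In hd2b hd2c, with replicate 2 included, these were 3.35-fold and 3.17-fold.

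The 12 PSI subunit genes held 1.68, 1.62 and 1.85% of counts in WT normal and 3.84, 3.68 and 4.02% in WT heat, with 1.83, 1.72 and 1.67% and 3.41, 3.55 and 3.40% in hd2b hd2c normal and heat. The 10 PSII subunit genes held 1.88, 1.85 and 2.01% in WT normal and 3.71, 3.72 and 4.00% in WT heat, with 2.15, 2.01 and 2.01% and 3.48, 3.41 and 3.57% in hd2b hd2c. Both classes were above all normal libraries of the same genotype after heat. The mean PSI share was 2.24-fold higher with heat in WT and 1.99-fold higher in hd2b hd2c. The mean PSII share was 1.99-fold higher in WT and 1.69-fold higher in hd2b hd2c. On the TMM scale the summed antenna level ranged over 49578 to 59649 CPM in WT normal and 397769 to 569159 in WT heat. The summed PSI level lay at 9719.9 to 11444 CPM in WT normal and 61365 to 77418 in WT heat, and the summed PSII level at 10918 to 12455 and 59184 to 77106. These sums are descriptions with no test, since their members were chosen with earlier results of these data known.

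**Figure D1:**
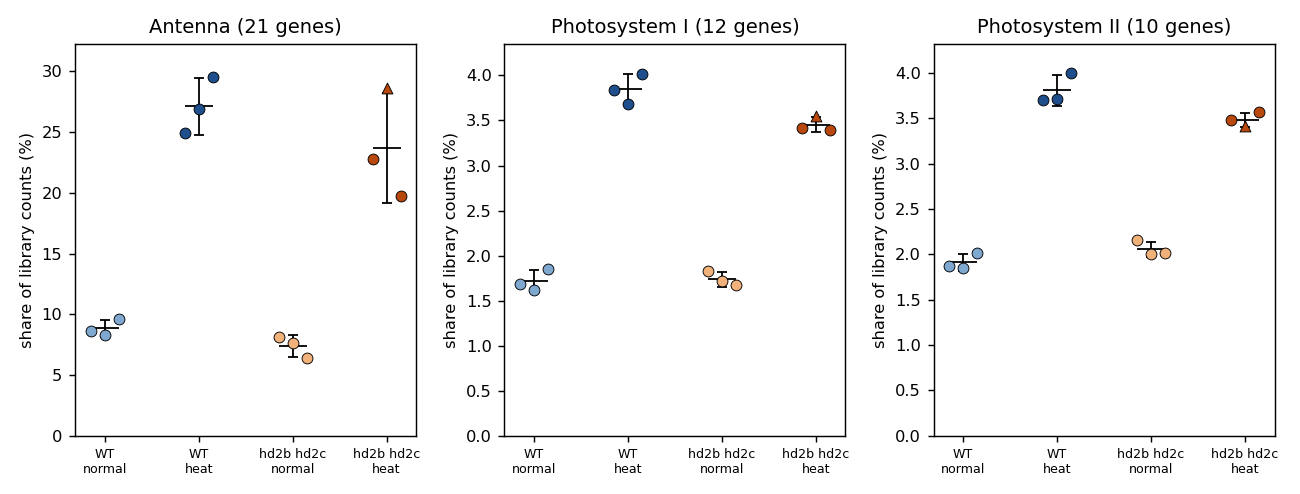
Share of library counts (%) on the vertical axis, starting at 0, for the antenna, PSI and PSII genes in the 4 groups. Circles are single libraries, the triangle is hd2b hd2c heat replicate 2, and bars are mean ± SD (n = 3); every heat library lies above every normal library of its genotype.

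All 43 genes rose with heat in WT and all 43 rose in hd2b hd2c under TMM (edgeR quasi-likelihood F test, Benjamini-Hochberg adjustment over all tested genes). The background share of tested genes called higher was 31.0% in WT and 29.9% in hd2b hd2c. In both genotypes every heat library lay above every normal library for all 43 genes in CPM, which held for 33.1% of tested genes in WT and 30.5% in hd2b hd2c. The median log2 fold change was 3.26 over the antenna, 2.76 over PSI and 2.52 over PSII in WT, against −0.14 over all tested genes. In hd2b hd2c the medians were 3.19, 2.66 and 2.38, against −0.12.

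With library totals only, 40 of the 43 rose in WT and 39 in hd2b hd2c, where the background was 5.10% and 4.79% of tested genes. The medians over the 43 were then 1.303 and 1.22. The genes that did not pass on this scale were LHCA6, LHCB7 and PSAK in both genotypes and LHCB4.3 in hd2b hd2c. As shares, all WT heat libraries lay above all WT normal libraries for 40 genes, against 6.19% of tested genes, and for 39 genes in hd2b hd2c, against 4.27%. LHCA6, LHCB7 and PSAK overlapped in both genotypes, and PSBW, a small PSII subunit, in hd2b hd2c.

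**Figure D2:**
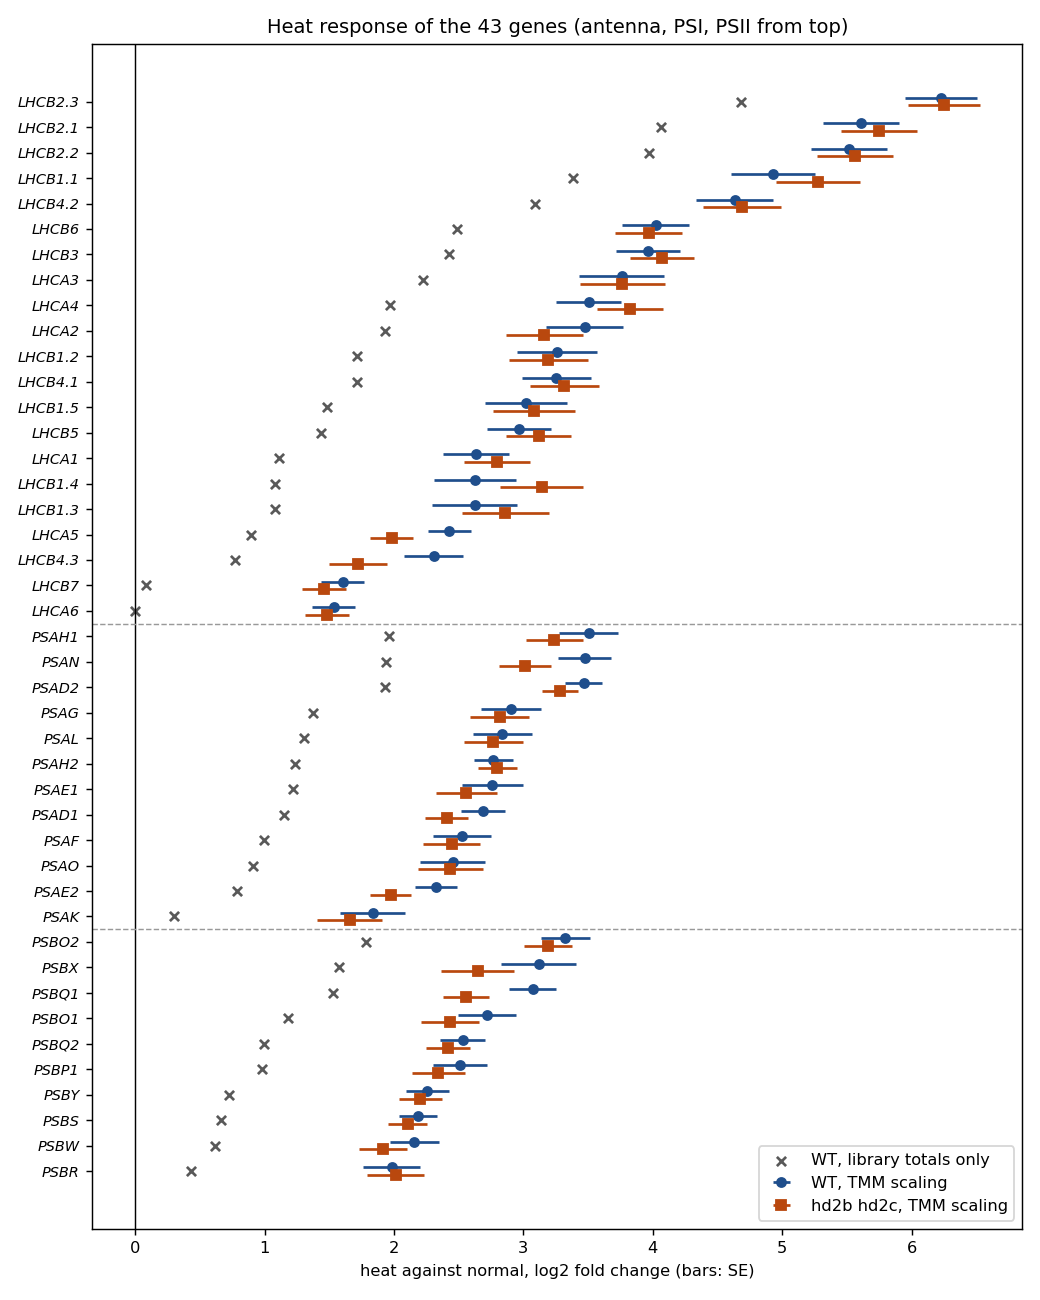
Log2 fold change of heat against normal for each of the 43 genes, with antenna, PSI and PSII genes separated by dashed lines and ordered by the change in WT. Filled points are TMM-scaled edgeR estimates with SE bars for WT and hd2b hd2c, and crosses are WT estimates with library totals only; LHCB2.3, LHCB2.1 and LHCB2.2 sit highest and LHCA6 and LHCB7 lowest, with the cross of LHCA6 on the line of no change.

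The 3 LHCB2 genes rose most of all members. LHCB2 is the LHCII protein whose phosphorylation by the kinase STN7 lets antenna move between the photosystems in state transitions. LHCB2.1 (AT2G05100) stood at 305, 236 and 296 CPM in WT normal and 11337, 12908 and 16620.1 in WT heat, and the hd2b hd2c libraries had 212, 249 and 223 CPM at normal temperature and 9974, 18685 and 8041 after heat. LHCB2.2 (AT2G05070) stood at 222, 172 and 221 CPM in WT normal and 7548, 8978 and 11630.1 in WT heat, and the hd2b hd2c libraries had 164, 179 and 166 CPM at normal temperature and 6379, 12479 and 5216 after heat. LHCB2.3 (AT3G27690) stood at 51.9, 37.2 and 49.6 CPM in WT normal and 2994, 3206 and 4188 in WT heat, and the hd2b hd2c libraries had 33.6, 46.8 and 42.5 CPM at normal temperature and 2676, 4566 and 2111 after heat. In each gene the heat libraries lay far above the normal libraries and the genotypes overlapped within each temperature. With heat in WT, LHCB2.3 rose by 6.22 (SE 0.28, adjusted p = 2.35e-14), LHCB2.1 by 5.61 and LHCB2.2 by 5.51 on the log2 scale. With library totals only these were 4.68, 4.06 and 3.97. Among the 20232 tested genes LHCB2.3 had rank 122 by its log2 fold change in WT.

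The 120 bases before each annotated gene start are shown for the LHCB2 genes, LHCB4.2 and LHCB1.1, the 5 that rose most, and for LHCA6 and LHCB7, which rose least, so that the windows can be compared. They come from the RefSeq TAIR10.1 assembly, 5′ to 3′ on the gene's strand, and capitals mark the GLK element CCAATC, the G-box CACGTG or the I-box GATAAG, read on either strand. The positions are chr2:1824481-1824600, minus strand for LHCB2.1, chr2:1800473-1800592, minus strand for LHCB2.2 and chr3:10255786-10255905, plus strand for LHCB2.3. They are chr3:2717437-2717556, plus strand for LHCB4.2, chr1:10475970-10476089, minus strand for LHCB1.1, chr1:6612510-6612629, plus strand for LHCA6 and chr1:28728878-28728997, plus strand for LHCB7.
LHCB2.1: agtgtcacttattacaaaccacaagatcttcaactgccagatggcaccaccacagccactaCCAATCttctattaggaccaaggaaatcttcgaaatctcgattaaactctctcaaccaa
LHCB2.2: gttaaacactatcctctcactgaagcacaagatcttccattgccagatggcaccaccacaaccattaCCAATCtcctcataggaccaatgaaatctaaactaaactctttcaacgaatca
LHCB2.3: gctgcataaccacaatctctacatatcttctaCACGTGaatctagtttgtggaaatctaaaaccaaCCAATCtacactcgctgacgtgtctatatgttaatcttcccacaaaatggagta
LHCB4.2: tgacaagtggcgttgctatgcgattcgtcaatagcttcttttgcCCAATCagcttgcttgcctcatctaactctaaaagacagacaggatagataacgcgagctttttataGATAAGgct
LHCB1.1: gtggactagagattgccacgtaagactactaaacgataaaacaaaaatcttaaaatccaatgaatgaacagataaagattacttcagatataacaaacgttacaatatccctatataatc
LHCA6: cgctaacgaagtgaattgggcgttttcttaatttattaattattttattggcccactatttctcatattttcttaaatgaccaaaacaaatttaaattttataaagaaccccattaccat
LHCB7: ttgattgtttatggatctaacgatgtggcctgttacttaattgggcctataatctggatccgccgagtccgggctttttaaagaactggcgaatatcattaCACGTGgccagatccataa

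CCAATC is an element described in targets of the GLK transcription factors, and it holds the CCAAT box within it. It lay 59, 53 and 54 bases before the start of LHCB2.1, LHCB2.2 and LHCB2.3 and 76 bases before that of LHCB4.2. LHCB1.1 and LHCA6 held none of the 3 motifs in these windows, LHCB7 and LHCB2.3 held a G-box, CACGTG, at 19 and 88 bases, and LHCB4.2 held GATAAG at 9 bases. In the 250 bases upstream, on both strands, CCAATC was found in 10 of 21 antenna genes (47.6%), 0 of 12 PSI genes and 1 of 10 PSII genes, against 10.2% of 27443 protein-coding genes. The antenna genes were LHCA1, LHCA3, LHCA4, LHCB1.3, LHCB1.5, LHCB2.1, LHCB2.2, LHCB2.3, LHCB4.1 and LHCB4.2, and the PSII gene was PSBQ2. LHCA1 and LHCB1.3 held it with log2 fold changes of 2.63 and 2.62 in WT, while LHCB6 and LHCB3, at 4.02 and 3.96, did not. CACGTG was found in 9 of the 43 (20.9%) against 6.49%, and the I-box GATAAG in 9 (20.9%) against 12.3%. The heat shock element core GAANNTTC was found in 1 of the 43 (2.33%), LHCB5, against 9.55%. These matches describe letters in these windows and were not tested.

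LHCB1 supplies most LHCII protein, and its 5 genes made up the bulk of the antenna counts. LHCB1.3 (AT1G29930) stood at 17016, 17695 and 20503 CPM in WT normal and 94024, 105735 and 140276 in WT heat, and the hd2b hd2c libraries had 15958, 14570.2 and 10882 CPM at normal temperature and 74727, 167138 and 58922 after heat. LHCB1.5 (AT2G34420) stood at 8994, 8791 and 11224 CPM in WT normal and 63680.4, 77637 and 94015 in WT heat, and the hd2b hd2c libraries had 9575, 8515 and 6167 CPM at normal temperature and 51352, 109013 and 44887 after heat. LHCB1.1 (AT1G29920) stood at 616, 526 and 674 CPM in WT normal and 15182, 16808 and 23278 in WT heat, and the hd2b hd2c libraries had 405, 481 and 386 CPM at normal temperature and 12934, 26860.1 and 9521 after heat. All 3 were higher in every heat library than in any normal library of their genotype. LHCB1.3 was the most abundant member on the per-length scale too, with a mean of 14963 CPM per kb of exon in WT normal and 92150.5 in WT heat, while LHCB1.5 had 9253 and 75066. With heat in WT, LHCB1.1 rose by 4.93 (SE 0.32, adjusted p = 1.13e-11) and LHCB1.3 by 2.62 (SE 0.33, adjusted p = 3.08e-07) on the log2 scale. LHCB1.2 (AT1G29910) stood at 3291, 3133 and 4135 CPM in WT normal and 27257, 31434 and 42228 in WT heat, and the hd2b hd2c libraries had 3636, 3349 and 2175 CPM at normal temperature and 22612, 43958 and 17197 after heat. LHCB1.4 (AT2G34430) stood at 4056, 4055 and 4745 CPM in WT normal and 21390.4, 25752 and 32205 in WT heat, and the hd2b hd2c libraries had 3499, 3003 and 2180.2 CPM at normal temperature and 18640.5, 43114 and 14784 after heat. The heat libraries were above the normal libraries in both, and the log2 fold changes in WT were 3.26 and 2.63.

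Copies of LHCB1 are alike enough to make single-gene values uncertain, because how reads with several alignments were counted is not given in the sources used here. The coding sequences of LHCB1.1, LHCB1.2 and LHCB1.3, a cluster on chromosome 1, are 804 bases long and differ at 47 positions. A stretch of 120 bases, coding positions 145 to 264, is shown to let the copies be told apart, with the 11 positions that vary in capitals.
LHCB1.1: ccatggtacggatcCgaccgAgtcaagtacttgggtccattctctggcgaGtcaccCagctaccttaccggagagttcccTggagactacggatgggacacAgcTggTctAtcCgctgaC
LHCB1.2: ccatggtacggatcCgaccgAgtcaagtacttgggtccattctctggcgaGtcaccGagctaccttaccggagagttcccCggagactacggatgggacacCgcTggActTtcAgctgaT
LHCB1.3: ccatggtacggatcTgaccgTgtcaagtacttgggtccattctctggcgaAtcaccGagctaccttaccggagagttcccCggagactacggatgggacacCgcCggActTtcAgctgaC
Of the 50-base windows of the LHCB1 and LHCB2 transcripts, 10.7% to 28.1% occurred in another annotated gene, and of the 150-base windows none in LHCB1. With the copies of each family summed before the fit, LHCB1 rose by 2.89 (SE 0.34, adjusted p = 1.00e-07) and LHCB2 by 5.64 (SE 0.30, adjusted p = 1.66e-13) on the log2 scale in WT. In hd2b hd2c the sums rose by 3.08 (SE 0.34) and 5.74 (SE 0.30).

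The make-up of LHCII transcripts shifted with heat. Of the summed counts of LHCB1, LHCB2 and LHCB3, LHCB2 took 1.63, 1.25 and 1.32% in WT normal and 8.46, 8.47 and 8.44% in WT heat. In hd2b hd2c it took 1.19, 1.52 and 1.88% and 8.97, 8.02 and 8.97%. LHCB3, the third trimer protein, took 2.75, 2.72 and 2.79% in WT normal and 5.86, 4.66 and 5.23% in WT heat, and the LHCB1 share went from 95.6, 96.0 and 95.9% to 85.7, 86.9 and 86.3%. The normal and heat libraries did not overlap for any of the 3 families, and the genotypes overlapped for each. Such shares do not depend on library scaling.

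Within LHCB1, LHCB1.1 took 1.81, 1.54 and 1.63% in WT normal and 6.85, 6.53 and 7.01% in WT heat, with 1.23, 1.61 and 1.77% and 7.18, 6.89 and 6.55% in hd2b hd2c. LHCB1.3 went the other way, from 50.1, 51.7 and 49.7% to 42.4, 41.1 and 42.3% in WT and from 48.3, 48.7 and 49.9% to 41.5, 42.8 and 40.5% in hd2b hd2c. LHCB1.2 took 9.16% to 10.02% in WT normal and 12.2% to 12.7% in WT heat, LHCB1.4 11.5% to 11.9% and 9.66% to 10.01%, and LHCB1.5 25.7% to 27.2% and 28.3% to 30.2%. Within LHCB2, LHCB2.3 took 8.97, 8.34 and 8.74% in WT normal and 13.7, 12.8 and 12.9% in WT heat, LHCB2.1 52.3% to 53.0% and 51.2% to 51.8%, and LHCB2.2 38.3% to 39.0% and 34.5% to 35.9%. In hd2b hd2c the temperatures overlapped for LHCB1.4, at 10.01% to 10.58% and 10.17% to 11.05%. They also overlapped for LHCB1.5, at 28.3% to 29.0% and 27.9% to 30.9%, and for LHCB2.1, at 51.7% to 52.5% and 52.3% to 52.4%. LHCB1.2, LHCB2.2 and LHCB2.3 moved in the same direction as in WT without overlap. LHCB2.3 shares transcript sequence with its neighbour AT3G27700, and 18.2% of its 150-base windows lay in another gene.

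Among the monomeric antenna genes, LHCB4.2 rose most. LHCB4, also called CP29, links LHCII trimers to the PSII core. LHCB4.1 (AT5G01530) stood at 1711, 1614 and 1997 CPM in WT normal and 14670.2, 16766 and 19308 in WT heat, and the hd2b hd2c libraries had 1988, 1853 and 1573 CPM at normal temperature and 13729, 28017 and 12131 after heat. LHCB4.2 (AT3G08940) stood at 458, 402 and 545 CPM in WT normal and 9679, 10954 and 14184 in WT heat, and the hd2b hd2c libraries had 418, 452 and 363 CPM at normal temperature and 8428, 16893 and 6471 after heat. LHCB4.3 (AT2G40100) stood at 4.09, 4.41 and 5.06 CPM in WT normal and 20.4, 19.6 and 27.1 in WT heat, and the hd2b hd2c libraries had 7.70, 7.45 and 6.28 CPM at normal temperature and 19.6, 38.4 and 17.609 after heat. LHCB4.3 was the rarest of the 43, at 3.12 CPM per kb in WT normal, with raw counts of 77 to 324 a library. On the log2 scale in WT, LHCB4.2 rose by 4.63 (SE 0.30, adjusted p = 8.37e-12), LHCB4.1 by 3.25 and LHCB4.3 by 2.31. LHCB4.2 took 21.1, 19.9 and 21.4% of LHCB4 counts in WT normal and 39.7, 39.5 and 42.3% in WT heat, with 17.3, 19.5 and 18.7% and 38.0, 37.6 and 34.8% in hd2b hd2c. LHCB4.3 took 0.188% to 0.219% in WT normal and 0.0707% to 0.0835% in WT heat, so its portion of the family was lower after heat although its own CPM was higher. In hd2b hd2c it took 0.319% to 0.323% at normal temperature and 0.0855% to 0.0946% after heat. Within the family, the hd2b hd2c libraries lay below WT for LHCB4.2 and above WT for LHCB4.3 at both temperatures, without overlap. These genotype differences in family share were not tested. Copies of other families also did not overlap between genotypes, such as LHCB1.4, whose share was lower in hd2b hd2c at normal temperature and higher after heat.

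LHCB6 (CP24) and LHCB3 rose by 4.02 and 3.96 on the log2 scale in WT, and LHCB5 (CP26) by 2.96. Of the LHCA genes, which encode the PSI antenna belt, LHCA3, LHCA4 and LHCA2 rose by 3.76, 3.50 and 3.47, and LHCA1 by 2.63. LHCA5 and LHCA6 are low-abundance proteins that attach PSI to the chloroplast NADH dehydrogenase-like complex, and LHCB7 encodes a rare antenna protein. LHCA6 (AT1G19150) stood at 67.4, 55.5 and 74.8 CPM in WT normal and 165, 184 and 224 in WT heat, and the hd2b hd2c libraries had 80.3, 73.6 and 70.6 CPM at normal temperature and 199.5, 279 and 154 after heat. LHCB7 (AT1G76570) stood at 10.6, 10.09 and 13.3 CPM in WT normal and 32.6, 36.9 and 34.00 in WT heat, and the hd2b hd2c libraries had 15.3, 11.9 and 11.9 CPM at normal temperature and 33.7, 48.2 and 29.2 after heat. LHCA6 rose by 1.53 (SE 0.17, adjusted p = 5.31e-08) and LHCB7 by 1.60 (SE 0.17, adjusted p = 1.68e-08) in WT under TMM, the smallest changes of the antenna. As shares of counts, LHCA6 held 0.0116, 0.00927 and 0.0121% of WT normal counts and 0.0103, 0.0109 and 0.0116% of WT heat counts, and with library totals only its log2 fold change was −0.004, adjusted p = 0.978. LHCB7 held 0.00182, 0.00169 and 0.00215% and 0.00204, 0.00219 and 0.00177%, and its change was 0.08, adjusted p = 0.696. In both genes the groups overlapped. The sign of LHCA6 turns with the scaling in both genotypes and that of LHCB7 in hd2b hd2c, where library totals gave −0.07 and −0.04. LHCA5 rose by 2.43 under TMM and by 0.89 with library totals only.

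**Figure D3:**
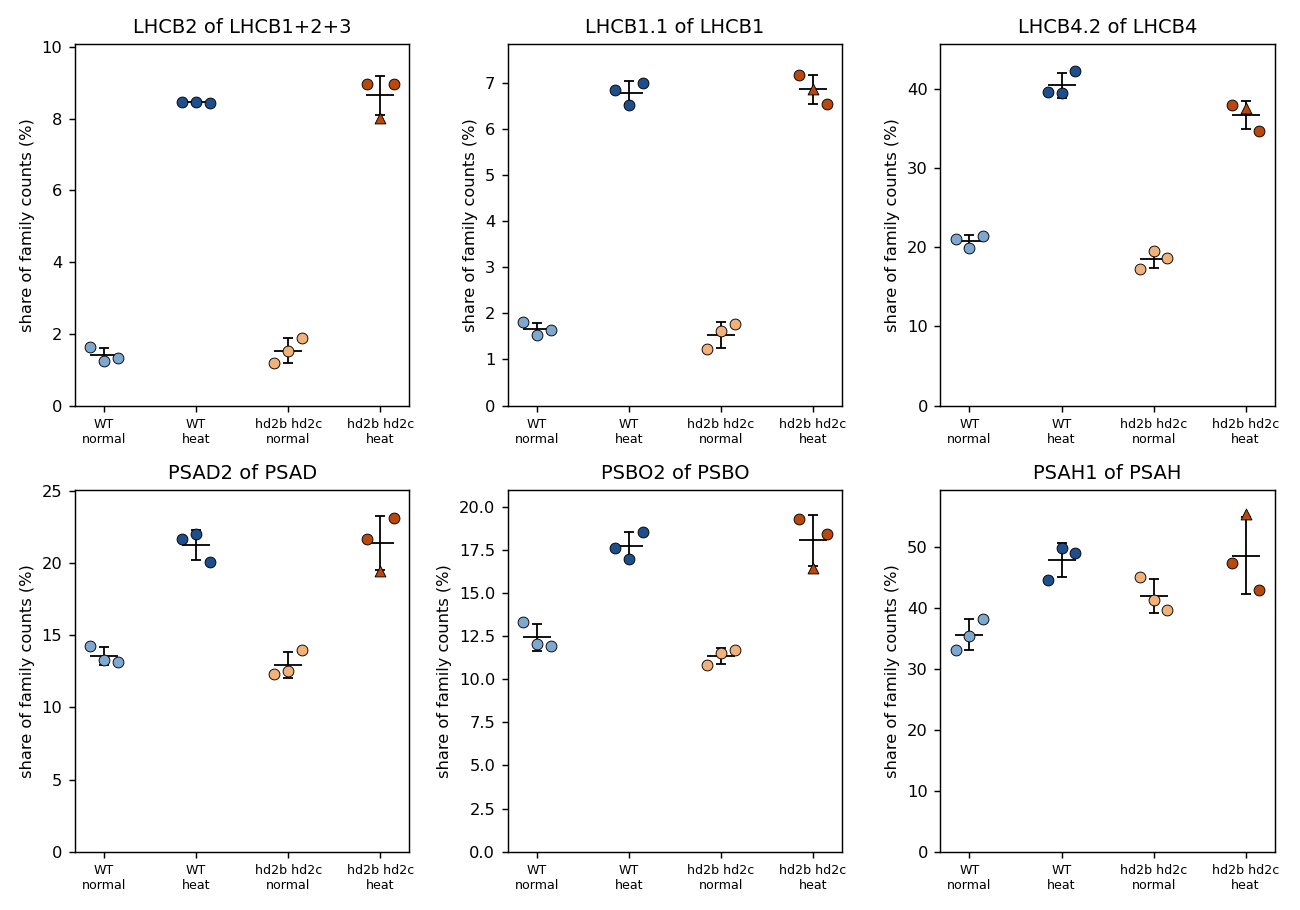
Share of a gene copy or family (%) in the summed counts of its family, vertical axes starting at 0, in the 4 groups. Circles are single libraries, the triangle is hd2b hd2c heat replicate 2, and bars are mean ± SD (n = 3); LHCB2, LHCB1.1, LHCB4.2, PSAD2 and PSBO2 take a larger share in every heat library than in any normal library, while PSAH1 of hd2b hd2c overlaps between temperatures.

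In PSI, subunits of the stromal ridge and of the LHCII docking side all rose with heat. PSAD and PSAE form the stromal side where ferredoxin docks. PSAD1 (AT4G02770) stood at 739.6, 647 and 736 CPM in WT normal and 4171, 4472 and 5047 in WT heat, and the hd2b hd2c libraries had 772, 738 and 608 CPM at normal temperature and 3311, 4216 and 3712 after heat. PSAD2 (AT1G03130) stood at 123, 98.9 and 111 CPM in WT normal and 1154, 1259.9 and 1265 in WT heat, and the hd2b hd2c libraries had 109, 106 and 98.9 CPM at normal temperature and 916, 1016 and 1117 after heat. PSAD2 rose by 3.46 (SE 0.14, adjusted p = 1.07e-15) in WT and PSAD1 by 2.69 (SE 0.17, adjusted p = 2.83e-12). PSAD2 took 14.3, 13.3 and 13.1% of PSAD counts in WT normal and 21.7, 22.0 and 20.04% in WT heat, with 12.3, 12.5 and 14.0% and 21.7, 19.4 and 23.1% in hd2b hd2c. The less abundant copy thus gained on the other in both genotypes. PSAE1 (AT4G28750) stood at 889.9, 955 and 1084 CPM in WT normal and 5482, 6398 and 7939 in WT heat, and the hd2b hd2c libraries had 1175, 1035 and 907 CPM at normal temperature and 4832, 9114 and 4444 after heat. PSAE2 (AT2G20260) stood at 254, 258 and 275 CPM in WT normal and 1284, 1146 and 1509.7 in WT heat, and the hd2b hd2c libraries had 336, 290.3 and 282 CPM at normal temperature and 1068, 1496 and 1004 after heat. For PSAE the less abundant copy rose less, PSAE2 by 2.33 (SE 0.16, adjusted p = 1.67e-11) and PSAE1 by 2.76. PSAE2 took 20.2% to 22.2% of PSAE counts in WT normal and 15.2% to 19.0% in WT heat. PSAE1 shares sequence with AT4G28755, with 18.2% of its 150-base windows in another gene. How such reads were counted is not given, so the PSAE comparison is uncertain.

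PSAH is a subunit at the site where mobile LHCII binds PSI. PSAH1 (AT3G16140) stood at 152, 154 and 184 CPM in WT normal and 1524, 1842 and 2182 in WT heat, and the hd2b hd2c libraries had 218, 186 and 184 CPM at normal temperature and 1623, 2690.2 and 1244 after heat. PSAH2 (AT1G52230) stood at 306, 281 and 297 CPM in WT normal and 1892, 1854 and 2278 in WT heat, and the hd2b hd2c libraries had 265, 264 and 281 CPM at normal temperature and 1804, 2169 and 1657 after heat. PSAH1 rose by 3.50 (SE 0.23, adjusted p = 9.29e-12) in WT, the largest change in PSI, and PSAH2 by 2.77. PSAH1 took 33.1, 35.4 and 38.2% of PSAH counts in WT normal and 44.6, 49.8 and 48.9% in WT heat. In hd2b hd2c the temperatures overlapped, at 45.1, 41.3 and 39.6% and 47.4, 55.4 and 42.9%. PSAH1 shares sequence with AT3G16130 and PSAH2 with AT1G52240, and 44.7% of the 150-base windows of PSAH1 lay in another gene, so both counts are uncertain without the strand setting.

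PSAN lies on the lumenal side near the plastocyanin docking site. PSAN (AT5G64040) stood at 450.1, 502 and 596 CPM in WT normal and 5256, 5118 and 6828 in WT heat, and the hd2b hd2c libraries had 604, 516 and 538 CPM at normal temperature and 4087, 5751 and 3523 after heat. It rose by 3.47 (SE 0.20, adjusted p = 1.05e-12) in WT and its temperatures did not overlap. PSAL and PSAG, which lie at the LHCII side and at the LHCA belt, were the PSI genes with most CPM. PSAL (AT4G12800) stood at 1888, 1873 and 2248 CPM in WT normal and 13006, 13825 and 16101 in WT heat, and the hd2b hd2c libraries had 2248, 2057 and 1798 CPM at normal temperature and 11776, 19598 and 10162 after heat. PSAG (AT1G55670) stood at 1212, 1201 and 1485 CPM in WT normal and 8686, 9587 and 10937 in WT heat, and the hd2b hd2c libraries had 1415, 1298 and 959.7 CPM at normal temperature and 6691, 12179 and 6998 after heat. They rose by 2.84 and 2.91. PSAG shares sequence with AT1G55673, with 52.3% of its 150-base windows in another gene, and is uncertain in the same way. PSAK, at the edge of PSI beside LHCA3, rose least. PSAK (AT1G30380) stood at 1254, 1305 and 1483 CPM in WT normal and 4917, 3525 and 5984 in WT heat, and the hd2b hd2c libraries had 1325, 1327 and 1129 CPM at normal temperature and 3258, 6170.0 and 2508 after heat. Its log2 fold change was 1.84 (SE 0.25, adjusted p = 1.53e-06) in WT under TMM and 0.30 (SE 0.14, adjusted p = 0.0539) with library totals only. As shares it held 0.215, 0.218 and 0.24% in WT normal and 0.308, 0.209 and 0.311% in WT heat, which overlap. PSAF, the plastocyanin docking subunit, and PSAO rose by 2.53 and 2.45.

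In PSII, the extrinsic proteins PSBO, PSBP and PSBQ shield the oxygen-evolving cluster on the lumenal side. PSBO1 (AT5G66570) stood at 2613, 2479 and 2812 CPM in WT normal and 16122, 16662 and 19241 in WT heat, and the hd2b hd2c libraries had 3097, 2761 and 2568 CPM at normal temperature and 13066, 21223 and 11236 after heat. PSBO2 (AT3G50820) stood at 401, 339.8 and 380.3 CPM in WT normal and 3444, 3397 and 4381 in WT heat, and the hd2b hd2c libraries had 377, 359 and 339.8 CPM at normal temperature and 3124, 4171 and 2537 after heat. PSBO2 rose by 3.32 (SE 0.19, adjusted p = 5.19e-13) in WT, the largest change in PSII, and PSBO1 by 2.72 (SE 0.22, adjusted p = 3.46e-10). PSBO2 took 11.9% to 13.3% of PSBO counts in WT normal and 16.9% to 18.5% in WT heat, with 10.8% to 11.7% and 16.4% to 19.3% in hd2b hd2c. PSBO2 thus gained on PSBO1 in both genotypes without overlap. PSBQ1 (AT4G21280) stood at 352, 386 and 418 CPM in WT normal and 2632, 3194 and 3898 in WT heat, and the hd2b hd2c libraries had 395, 449 and 473 CPM at normal temperature and 2167, 3139.9 and 2453 after heat. PSBQ2 (AT4G05180) stood at 658, 617 and 752 CPM in WT normal and 3603, 3795 and 4325 in WT heat, and the hd2b hd2c libraries had 639, 714 and 661 CPM at normal temperature and 3466, 4393 and 2909 after heat. PSBQ1 rose by 3.07 and PSBQ2 by 2.53. PSBQ1 took 34.8% to 38.5% of PSBQ counts in WT normal and 42.2% to 47.4% in WT heat, while in hd2b hd2c the temperatures overlapped at 38.2% to 41.7% and 38.5% to 45.7%. PSBP1 rose by 2.51.

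Among the small membrane subunits of PSII, PSBX rose most and PSBR least. PSBX (AT2G06520) stood at 1017, 945 and 1086 CPM in WT normal and 7515, 8368 and 10575 in WT heat, and the hd2b hd2c libraries had 1310.0, 1073 and 928 CPM at normal temperature and 4816, 11554 and 4370.3 after heat. PSBR (AT1G79040) stood at 2313, 2899 and 3123 CPM in WT normal and 8957, 9037 and 14917 in WT heat, and the hd2b hd2c libraries had 3093, 2857 and 2688 CPM at normal temperature and 9896, 14385 and 10587 after heat. PSBW (AT2G30570) stood at 1121, 1094 and 1309 CPM in WT normal and 4683, 5049 and 5978 in WT heat, and the hd2b hd2c libraries had 1478, 1259 and 984 CPM at normal temperature and 4202, 5703 and 4134 after heat. PSBX rose by 3.12 (SE 0.29, adjusted p = 5.95e-09) in WT, PSBW by 2.16 (SE 0.19, adjusted p = 9.48e-10) and PSBR by 1.98 (SE 0.22, adjusted p = 4.47e-08). With library totals only the changes were 1.58, 0.62 and 0.43. PSBR, with 3544 CPM per kb in WT normal, had the highest level per length of the PSII genes at normal temperature. PSBY rose by 2.26, and PSBS, the sensor of lumen acidity in photoprotective energy dissipation, by 2.18.

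Ratios of summed counts within a library compare the classes without any scaling. Antenna over PSII counts were 4.60, 4.49 and 4.79 in WT normal and 6.72, 7.24 and 7.38 in WT heat. In hd2b hd2c they were 3.78, 3.82 and 3.18 and 6.54, 8.40 and 5.54. Antenna over PSI counts were 5.14, 5.10 and 5.21 in WT normal, 6.48, 7.31 and 7.35 in WT heat, and in hd2b hd2c 4.45, 4.47 and 3.83 at normal temperature and 6.67, 8.07 and 5.82 after heat. Both ratios were higher in every heat library than in any normal library of the genotype. PSI over PSII counts went from 0.897, 0.88 and 0.919 to 1.04, 0.991 and 1.00 in WT and from 0.849, 0.855 and 0.83 to 0.982, 1.04 and 0.952 in hd2b hd2c. At normal temperature the 3 hd2b hd2c libraries lay below the 3 WT libraries in each of the 3 ratios, and after heat the genotypes overlapped in each. No test was made on these sums.

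**Figure D4:**
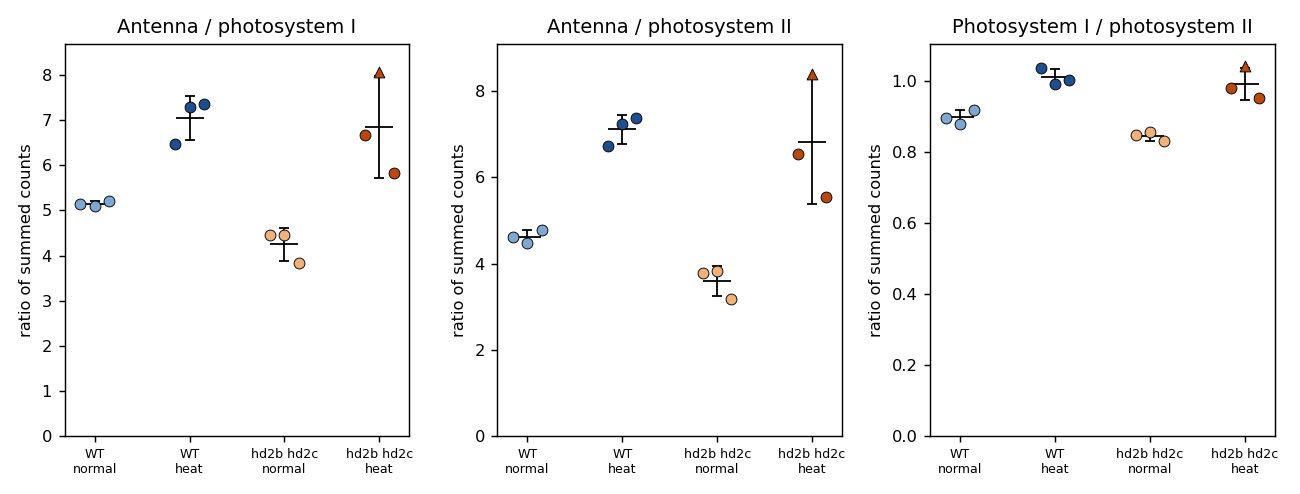
Ratios of summed counts within a library, vertical axes starting at 0, for antenna over PSI, antenna over PSII and PSI over PSII in the 4 groups. Circles are single libraries, the triangle is hd2b hd2c heat replicate 2, and bars are mean ± SD (n = 3); heat libraries lie above normal libraries in all 3 panels, and the hd2b hd2c normal libraries lie lowest.

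Under TMM with the low-count filter, no gene of the 43 was called between the genotypes with all 12 libraries in the fit. At normal temperature 0 of 43 were called, with 2 at an unadjusted p under 0.05, against 2.65% of tested genes called in either direction. The antenna median was −0.21, with 14 of 21 estimates below 0, and the PSI and PSII medians were −0.04 and 0.06, against 0.00 over all tested genes. DESeq2 called 0 as well, with 2 at an unadjusted p under 0.05. The lowest estimate was that of LHCA4, at −0.62 (SE 0.23, adjusted p = 0.191), and the highest that of LHCB4.3, at 0.66 (SE 0.23, adjusted p = 0.144). LHCA4 (AT3G47470) stood at 1578, 1482 and 1775 CPM in WT normal and 15721, 17849 and 21317 in WT heat, and the hd2b hd2c libraries had 941, 1282 and 933 CPM at normal temperature and 14288, 20617 and 9828 after heat. LHCA4 was lower in all 3 hd2b hd2c normal libraries than in any WT normal library, and passed with library totals only at −0.57 (SE 0.12, adjusted p = 0.0384), where 0.138% of tested genes were called lower. LHCA4 was also called lower with reference-gene factors, at −0.73 (SE 0.21, adjusted p = 0.0439), against 3.36% of tested genes, and without the low-count filter, at −0.60 (SE 0.18, adjusted p = 0.0432), where LHCB4.3 was called higher, at 0.67 (SE 0.19, adjusted p = 0.0295). All 3 hd2b hd2c libraries lay below all 3 WT libraries at normal temperature for 6 of the 43 genes in CPM, all antenna, against 13.7% of tested genes. As shares this held for 8, of which 7 were antenna, against 10.3%. The count in CPM was close to the background. Other members went the opposite way. LHCA5, LHCB4.3, PSAE2 and PSAH1 had all 3 hd2b hd2c normal libraries above all 3 WT normal libraries on both scales. LHCA6, PSBO1 and PSBS did so as shares only. The share of all tested genes in that direction was not computed. LHCA4 and LHCB4.3 are named here for their estimates, after their values were seen.

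After heat 0 of 43 were called in either direction, with 1 at an unadjusted p under 0.05, against 2.76% of tested genes called, and DESeq2 called 0 with 4 at an unadjusted p under 0.05. The median over the 43 was −0.16, with 36 estimates below 0. The 3 hd2b hd2c heat libraries did not move together. Against the WT heat mean, the antenna genes had a median log2 ratio of −0.44 in replicate 1, 0.49 in replicate 2 and −0.77 in replicate 3. For PSI the ratios were −0.44, 0.33 and −0.53, and for PSII −0.34, 0.27 and −0.41. Replicate 2 is the library with 11.2% ribosomal RNA.

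Without that library, 24 of the 43 genes were lower in hd2b hd2c after heat and 0 higher, against 3.41% of tested genes called lower. They were 14 of 21 antenna, 6 of 12 PSI and 4 of 10 PSII genes, and the median over the 43 was −0.50. PSBX had the smallest adjusted p, at −0.93 (SE 0.16, adjusted p = 3.96e-04), followed by LHCA2, at −0.79 (SE 0.17, adjusted p = 0.00356), LHCB2.2, at −0.68, and PSAK, at −0.73. With library totals only as well, 12 of 43 were lower, against 0.859% of tested genes, and the median was −0.19. With all other libraries kept, leaving out WT heat replicate 3 moved the median to −0.03 with 24 estimates below 0 and 0 calls.

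**Figure D5:**
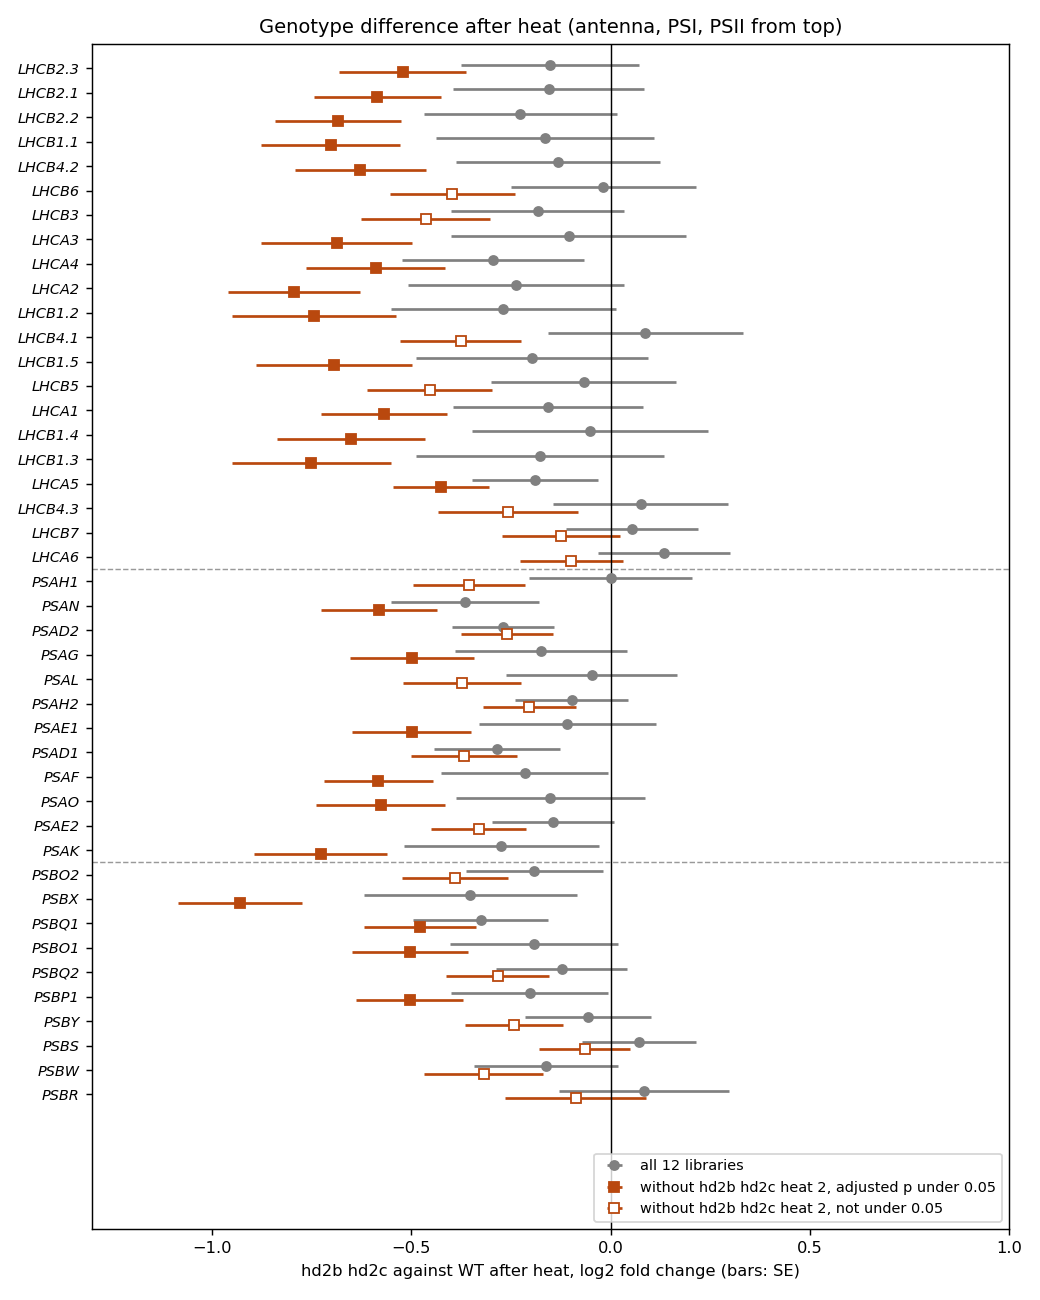
Log2 fold change of hd2b hd2c against WT after heat for each of the 43 genes, in the same order as the heat plot. Grey circles use all 12 libraries and squares leave out hd2b hd2c heat replicate 2, filled where the adjusted p is under 0.05, with SE bars; 24 squares are filled and all lie below 0.

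As shares of counts after heat, 5 of the 43 genes, namely LHCA4, PSAG, PSAN, PSBO1 and PSBP1, had all 3 hd2b hd2c shares below all 3 WT shares, against 3.45% of tested genes. In CPM this held for 1 of the 43, PSAD2, against 8.66% of tested genes, so the count depended on the scale. The summed PSI and PSII shares of the 3 hd2b hd2c heat libraries lay below those of all WT heat libraries. With ribosomal RNA left out of the total, hd2b hd2c heat replicate 2 moved to 4.00% for PSI and 3.84% for PSII, inside the WT ranges of 3.74 to 4.07% and 3.76 to 4.06%. The single-gene shares above keep ribosomal RNA in the total. With it left out, PSAG, PSBO1 and PSBP1 overlapped between genotypes after heat, while LHCA4 and PSAN did not. The share of all tested genes was not recomputed in that way. The summed antenna share overlapped between genotypes, at 22.7, 28.7 and 19.8% in hd2b hd2c heat.

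The heat effect was not shown to differ between genotypes in any of the 43. The interaction was called for 0, with 1 at an unadjusted p under 0.05 (and 1 by DESeq2, which called 0), against 0.336% of tested genes. Without hd2b hd2c heat replicate 2 it was called lower for 4, against 0.810% of tested genes. They were PSBX, at −1.06 (SE 0.20, adjusted p = 0.00515), LHCA5, at −0.69, LHCA2, at −0.87, and LHCB4.3, at −0.92. PSBX and LHCA2 passed with library totals only as well. PSBX illustrates the pattern, with 4816 and 4370.3 CPM in hd2b hd2c heat replicates 1 and 3, 11554 in replicate 2, and 7515 to 10575 in WT heat.

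Other genes of the photosynthetic apparatus, from lists chosen with earlier results of these data known, also mostly rose under TMM, against the background of 31.0% of tested genes called higher in WT. Of 12 nuclear electron transport and ATP synthase genes, all 12 rose with heat in WT, with FD1, a ferredoxin, at 3.56 (SE 0.22), and with library totals only 6 rose and 2 fell. Of 12 assembly and repair genes 10 rose and 0 fell, among them the PSII repair protease genes FTSH8, at 2.92 (SE 0.12), and VAR2, at 2.63 (SE 0.15). With library totals only 4 of them rose and 3 fell. Of 7 genes for state transitions, cyclic flow and thylakoid shape 6 rose, including STN7 at 2.05 (SE 0.14), and 1 rose and 1 fell with library totals only. All 7 LHC-like genes rose, led by ELIP1, an early light-induced protein, at 6.68 (SE 0.19), and 4 rose and 3 fell with library totals only. None of these 38 genes was called in the interaction. At normal temperature 1 LHC-like gene was called lower in hd2b hd2c under TMM, and 1 with library totals only. Under TMM, 2.65% of tested genes were called in either direction there.

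Of 11 regulators of chloroplast genes, 6 rose and 4 fell with heat in WT under TMM, and 3 rose and 7 fell with library totals only. GLK2 and GLK1, transcription factors that activate antenna genes, had log2 fold changes of 3.88 (SE 0.16) and 2.33 (SE 0.18), GUN4, which promotes chlorophyll synthesis, 3.14 (SE 0.13), and GUN1, a chloroplast signalling gene, −1.15 (SE 0.11). Clock genes were chosen after their values were seen and are given under TMM only. CCA1, a morning-expressed clock gene, had 3.69 (SE 0.27), PRR9 5.34 (SE 0.35) and TOC1, an evening-expressed one, −2.43 (SE 0.12), while GI, also evening-expressed, rose, at 1.12 (SE 0.10). LHY, the partner of CCA1, at 0.05 (SE 0.40), PRR7, at 0.35 (SE 0.20), and PRR5, at −0.19 (SE 0.16), did not pass. Under TMM, 3 of the 7 clock genes thus rose and 1 fell, and this count depends on the scale. GI had 4600 raw counts over the WT normal libraries and 4351 over the WT heat libraries, which held more counts in total. Of the 5 reference genes, 4 rose by 0.59 to 1.16 under TMM and 4 fell with library totals only. With the 5 used as the scale, all 43 members rose in both genotypes, with medians of 2.15 and 2.14. Of the 8 shoot epidermis genes 5 rose and 1 fell under TMM in WT, while 0 rose and 8 fell with library totals only.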

How the data were processed

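Messenger RNA libraries of whole seedlings were compared across 4 groups of 3. The deposited table holds raw read counts per gene, which the authors made with HISAT2 2.1.0 and featureCounts 2.0.3 on TAIR10, per the submitters' processing notes; the sources used here do not give their strand and multiple-alignment settings. The 43 genes and all other lists were chosen with earlier results of these data known. Genes were kept with filterByExpr (minimum count 10, minimum total 15). Counts were scaled by TMM and tested with edgeR 4.0.16 in R 4.3.3 (robust quasi-likelihood F test, 1 fit of 4 group means, 5 comparisons), with Benjamini-Hochberg adjustment over 20232 genes and a threshold of 0.05; the steps were tested on simulated data. SE is the absolute log2 fold change over the square root of F. Members described in full are, per class, those with the largest and smallest heat changes in WT and the most CPM, and the members of gene pairs. Library totals only, upper-quartile, reference-gene and DESeq2 1.42.0 alternatives, no low-count filter, a replicate block and each library left out were run. Settings without hd2b hd2c heat replicate 2 combined with another scaling were added after the data were seen. Sequences come from RefSeq TAIR10.1; the count table has no coordinates. Coding sequences replaced the planned protein comparison. The deepest library has 24030931 counts and the shallowest 7737285; the SE of each fold change, which also covers the spread between libraries, gives its precision. Same-numbered libraries did not deviate together (18 pairs, correlations −0.132 to 0.146), so the numbers were not taken as pairs.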

Additional observations from a re-analysis of the deposited data

How the results depend on the processing

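The 43 genes rose with heat in both genotypes under upper-quartile, reference-gene and DESeq2 scaling, DESeq2's own test, no low-count filter, the replicate block and each library left out. With the replicate block, 43 rose in WT and 43 in hd2b hd2c, and 0 were called between genotypes. With library totals only, the log2 fold change of LHCA6 was −0.004 in WT and −0.066 in hd2b hd2c, and that of LHCB7 was −0.043 in hd2b hd2c. With hd2b hd2c heat replicate 2 left out as well, they were −0.037 for LHCA6, −0.003 for LHCB7 and −0.084 for PSAK in hd2b hd2c; the cause was not tested.

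Genotype calls moved with the libraries, the scaling and the filter. Leaving out each library in turn gave 0 to 1 genes higher and 0 to 2 lower at normal temperature, 0 to 24 lower after heat and 0 to 4 lower in the interaction, the highest each time without hd2b hd2c heat replicate 2. At normal temperature 1 gene was lower with library totals only and 1 with reference-gene factors, and without the low-count filter 1 was higher and 1 lower. Without hd2b hd2c heat replicate 2, library totals only gave 1 higher and 4 lower at normal temperature, 12 lower after heat and 2 lower in the interaction. Upper-quartile factors gave 1 higher and 2 lower, 24 and 4. Reference-gene factors gave 5 lower, 28 and 3. The cause was not tested.

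With heat shock protein genes left out of the total, the PSI share after heat was 4.04% for WT and 3.607% for hd2b hd2c, and the PSII share 3.998% and 3.641%. With ribosomal RNA left out, the hd2b hd2c heat shares were 3.623% for PSI and 3.649% for PSII. The fewest counts lay behind LHCB4.3 and LHCB7.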
